A study of Homo sapiens with 8 samples.

Results

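The genes described here are 10 Krueppel-like factors, *KLF3*, *KLF4*, *KLF5*, *KLF6*, *KLF7*, *KLF9*, *KLF10*, *KLF11*, *KLF13* and *KLF16*. They were picked by name, with earlier results of these data known, and each of the 10 is a row of the table of 13307 genes. mRNA was sequenced from Panc-1, a human line of pancreas ductal adenocarcinoma, in 4 conditions with 2 libraries each. Cells carried control siRNA (siControl) or siRNA against *PHF13* (siPHF13), which encodes a reader of histone H3 methylated on lysine. After transfection they were either left untreated or given 10 ng/ml TGFβ for 48 h. TGFβ is used in these cells to induce the epithelial-mesenchymal transition (EMT), in which epithelial cells lose their junctions and become migratory. The knockdown was transient and all libraries come from one cell line. The labels do not say whether the 2 libraries of a condition were separate cultures, and the study's methods call them duplicates. The p-values therefore rest only on the spread between replicate libraries, pooled over the 4 conditions and moderated by that of other genes.

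Krueppel-like factors bind GC-rich and CACCC sequences in promoters through zinc fingers at the end of the protein. Their other end differs and recruits either coactivators or corepressors, so that members can activate or repress the same kind of site. *KLF4* and *KLF5* are known from epithelial cells and their tumours, and *KLF10* and *KLF11* were named early on as genes induced by TGFβ.

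Values are normalized counts, that is reads on a gene divided by one size factor per library. Depth was 39196214 to 46700806 reads on genes per library. Replicates of a condition differed by more than counting noise. The factor in squared differences was 3.80 in siControl, 12.1 in siPHF13, 13.1 in siControl + TGFβ and 27.2 in siPHF13 + TGFβ cells. The pooled spread of the main fit thus understates that of siPHF13 + TGFβ and overstates that of siControl cells, taken over all genes. *PHF13* had 1804 and 1662 normalized counts in siControl, 524 and 558 in siPHF13, 1586 and 1709 in siControl + TGFβ and 513 and 529 in siPHF13 + TGFβ cells, so that its level was low in all 4 libraries that carried its siRNA. The TGFβ targets *SMAD7* and *SKIL* were called higher with TGFβ in both siControl and siPHF13 cells. Of the markers, 6 of 6 of duct carcinoma were in the table and none of the acinar, endocrine or endothelial ones. The duct markers moved in both directions. After depletion *EPCAM* was called higher (0.78 without and 0.94 with TGFβ) and *SOX9* lower (-0.82 and -0.62), and *KRT19* rose by 0.25 and was called higher with TGFβ (0.76). *KRT18* fell by 0.33 without TGFβ. With TGFβ in siControl cells *KRT8* (-0.68) and *KRT19* (-0.84) were called lower and *SOX9* higher (0.90), and *KRT18* fell by 0.57, while *KRT7* did not pass the test in any of these comparisons. *CD68*, a lysosomal gene and the one marker of leukocytes in the table (1 of 3), ranged from 6137 to 13400 normalized counts over the libraries and was called higher after depletion, with log2 fold changes of 0.77 without and 0.79 with TGFβ. Of 5 fibroblast markers 2 were present. One of them, *COL1A1*, was called higher with TGFβ in siControl cells (2.23) and lower after depletion (-0.83 without and -1.72 with TGFβ). The other, *PDGFRB*, did not pass the test in these comparisons, with values of 0.48 with TGFβ and of 0.47 and 0.10 after depletion. In such bulk libraries fewer cells of a type and less RNA per cell cannot be told apart, and the part of other cells in the results below was not tested. Exons of *KLF3*, *KLF4*, *KLF7*, *KLF11* and *KLF16* overlap antisense transcripts by 13 to 483 bases, and without a stated strand setting the reads of both cannot be told apart there.

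In the following, a gene rose or fell where the adjusted p of limma was under 0.05, with Benjamini-Hochberg adjustment over 13307 genes, and it was called where its absolute log2 fold change was also over 0.58. Fold changes are on the log2(normalized count + 1) scale, which understates those of low genes, here *KLF5*.

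The promoters of 3 members are shown as examples. *KLF7* was called with TGFβ and also fell after depletion. *KLF9* was called lower after depletion, and *KLF16* rose after depletion, below the fold threshold. These are not separate classes, and other members combine such changes. Each run holds 250 bases before and 50 after the start site, from RefSeq's table of build GRCh38.p14, placed on GRCh37 by exact match at chr2:208030623-208030922 (*KLF7*), chr9:73029524-73029823 (*KLF9*) and chr19:1863529-1863828 (*KLF16*), all on the minus strand. Capitals mark the GC box GGGCGG and the CACCC box, on either strand, and these are the letters that the factors of this family are known to bind.
KLF7: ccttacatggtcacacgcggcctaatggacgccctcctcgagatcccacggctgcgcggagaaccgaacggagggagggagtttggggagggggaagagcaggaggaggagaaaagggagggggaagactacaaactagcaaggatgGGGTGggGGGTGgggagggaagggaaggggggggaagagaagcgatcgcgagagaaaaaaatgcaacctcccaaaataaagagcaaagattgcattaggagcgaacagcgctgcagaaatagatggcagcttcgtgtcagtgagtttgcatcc
KLF9: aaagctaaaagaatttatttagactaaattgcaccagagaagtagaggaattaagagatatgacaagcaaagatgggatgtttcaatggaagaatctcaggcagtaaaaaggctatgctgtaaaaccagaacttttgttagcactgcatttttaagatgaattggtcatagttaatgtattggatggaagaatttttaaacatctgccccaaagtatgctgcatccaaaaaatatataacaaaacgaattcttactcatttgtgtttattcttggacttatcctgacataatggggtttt
KLF16: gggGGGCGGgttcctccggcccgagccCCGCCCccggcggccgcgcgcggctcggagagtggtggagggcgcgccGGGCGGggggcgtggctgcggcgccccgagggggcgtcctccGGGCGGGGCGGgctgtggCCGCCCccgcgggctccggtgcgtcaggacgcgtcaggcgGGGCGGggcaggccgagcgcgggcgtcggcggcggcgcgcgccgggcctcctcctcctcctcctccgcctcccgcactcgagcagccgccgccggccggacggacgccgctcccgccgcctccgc
The *KLF16* window held 7 GC boxes and no CACCC box, with a GC content of 86%. The *KLF7* window held 2 CACCC boxes and no GC box, at 56.7% GC. The *KLF9* window held neither, at 32.7% GC. Windows of other members, nearest the start of the canonical transcript, held GC boxes too. There were 4 for *KLF4*, 3 for *KLF13* and 2 each for *KLF5*, *KLF6* and *KLF11*. Of these, all but *KLF6* fell after depletion without TGFβ, so the 3 examples show no link between boxes and direction. Over 35116 promoters of this length, 45% held a GC box and 59.9% a CACCC box. *KLF7* has other start sites in the table, and one of them, at position -908 relative to the one shown, held 4 GC boxes. These letters describe the windows and say nothing of what binds there.

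Levels can be compared between genes only per length, here as normalized counts per kb of the canonical transcript. In siControl cells *KLF6* was highest with 2085 ± 23.3 per kb (SD, n = 2), followed by *KLF10* with 1621 ± 24.3 and *KLF16* with 886 ± 15.6. *KLF4* had 495 ± 17.5, *KLF11* 422 ± 26.3, *KLF13* 397 ± 10.9, *KLF3* 273 ± 0.256 and *KLF7* 147 ± 7.71 per kb. *KLF9* had 57.0 ± 3.46 and *KLF5* 17.8 ± 2.40 per kb. Of the neighbours in this order, *KLF11* and *KLF13* did not differ beyond their spread.

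**Figure D1:**
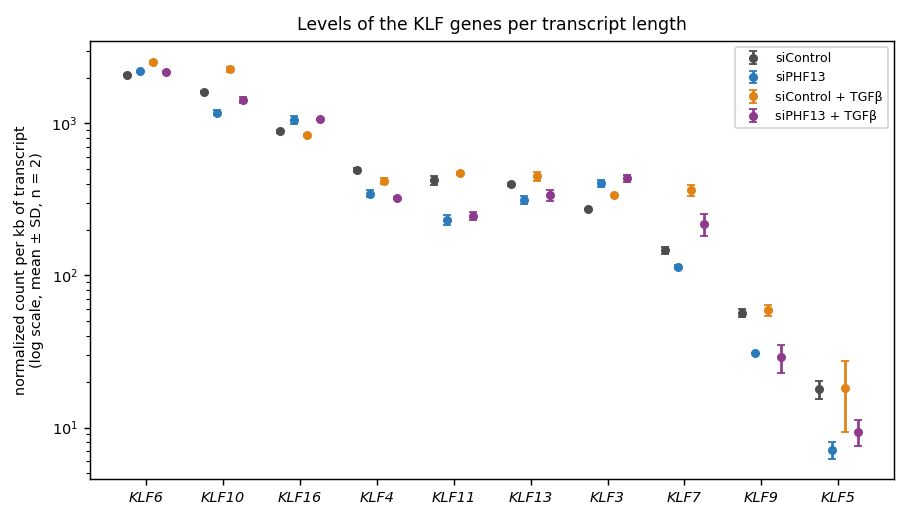
Normalized counts per kb of canonical transcript (log scale) for the 10 genes in the 4 conditions, as mean ± SD of 2 libraries. *KLF6* and *KLF10* stand highest in all conditions and *KLF5* lowest, and the step of *KLF7* with TGFβ, from 147 to 364 per kb in siControl cells, is visible at this scale.

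After depletion of PHF13 without TGFβ, 7 of the 10 genes fell, 2 rose and *KLF6* did not pass the test. *KLF5*, *KLF9* and *KLF11* were called lower and none was called higher. The background was high. Of all genes 10.4% were called lower and 7.95% higher in this comparison, and 24.3% fell and 23.1% rose by the adjusted p alone. The median log2 fold change of the 10 genes was -0.42, against -0.00 over all genes. In TGFβ-treated cells depletion gave 7 falls and 2 rises again, and *KLF7*, *KLF9*, *KLF10* and *KLF11* were called lower. Here 11.7% of all genes were called lower and 8.81% higher, and 25.9% fell and 24.5% rose by the adjusted p alone. The median of the 10 was -0.54, against 0.00 over all genes. Both comparisons describe the mRNA of these 10 genes after *PHF13* siRNA, in cells without and with TGFβ. Whether the genes depend on PHF13 directly was not tested. The 10 were chosen with earlier results of these data known, so the medians describe these genes alone.

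**Figure D2:**
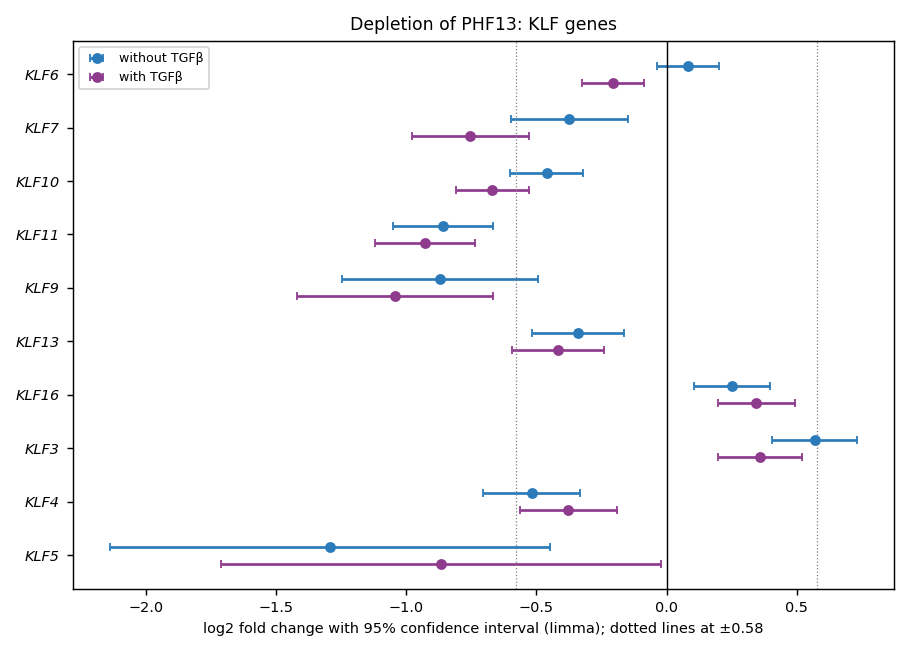
Log2 fold change of each gene after depletion of PHF13, without TGFβ (siPHF13 against siControl) and with TGFβ (siPHF13 + TGFβ against siControl + TGFβ), with 95% confidence intervals from limma and dotted lines at the fold threshold of 0.58 in either direction. *KLF9* and *KLF11* lie beyond the lower line in both, *KLF3* and *KLF16* lie above 0 in both, and the interval of *KLF5* is the widest.

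*KLF10* and *KLF11* encode close relatives that repress transcription through the SIN3A corepressor. *KLF10*, on chromosome 8 of GRCh37 from 103661012 to 103667953, had 4676 and 4776 normalized counts in siControl, 3339 and 3535 in siPHF13, 6817 and 6441 in siControl + TGFβ and 4299 and 4036 in siPHF13 + TGFβ cells. None of the 4 conditions overlapped. It fell after depletion by 0.46 on the log2 scale without TGFβ (SE 0.07) and was called lower with TGFβ, at -0.67 (SE 0.07, adjusted p = 2.02e-06, limma). It rose with TGFβ in siControl cells, by 0.49 (SE 0.07, adjusted p = 1.68e-04, limma), and in siPHF13 cells by 0.28 (adjusted p = 0.0333, limma). In a fit to only the siPHF13 and siPHF13 + TGFβ libraries, the value of 0.28 did not pass the test (adjusted p = 0.151, limma). Depleted cells with TGFβ stayed below untreated siControl cells, at 88.2% of their mean (log2 fold change -0.18, adjusted p = 0.0317, limma).

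*KLF11*, on chromosome 2 from 10182976 to 10194963, had 1628 and 1778 normalized counts in siControl and 890.2 and 986 in siPHF13 cells. With TGFβ it had 1915 and 1866 in siControl and 949 and 1039 in siPHF13 cells. The 4 depleted libraries lay far below the 4 others, whether or not TGFβ was given. Its log2 fold change after depletion was -0.86 without TGFβ (SE 0.09, adjusted p = 3.98e-06, limma) and -0.93 with TGFβ (SE 0.09, adjusted p = 1.80e-06, limma). In contrast to *KLF10*, it did not pass the test for TGFβ, with 0.15 in siControl cells (95% interval -0.04 to 0.34) and 0.08 in siPHF13 cells (interval -0.11 to 0.28). Whether the responses of *KLF10* and *KLF11* differ was not tested.

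*KLF6* and *KLF7* form another pair of relatives. *KLF6*, on chromosome 10 from 3818188 to 3827473, is described as a tumour suppressor, and was the most abundant member per length. It had 9493 and 9644 normalized counts in siControl, 10179 and 10079.5 in siPHF13, 11786 and 11357 in siControl + TGFβ and 10085 and 9984 in siPHF13 + TGFβ cells. The siControl + TGFβ libraries stood above the other 6, and the 4 depleted libraries lay close together. Depletion gave 0.08 without TGFβ, which did not pass the test (interval -0.04 to 0.20), and with TGFβ *KLF6* fell by 0.21 (adjusted p = 0.0071, limma). It rose with TGFβ in siControl cells by 0.27 (SE 0.06, adjusted p = 0.00387, limma), while its value in siPHF13 cells was -0.01 (interval -0.13 to 0.11).

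*KLF7*, on chromosome 2 from 207938861 to 208038580, is known from the growth of axons and is expressed in many tissues. It had 1184 and 1275 normalized counts in siControl and 929 and 967 in siPHF13 cells, and 3216 and 2872 in siControl + TGFβ and 2021 and 1604 in siPHF13 + TGFβ cells. The 4 conditions did not overlap, and TGFβ raised it in both backgrounds. It was the one member called with TGFβ in siControl cells, at a log2 fold change of 1.31 (SE 0.10, adjusted p = 1.61e-06, limma), which is 2.47-fold. It was also the one called in siPHF13 cells, at 0.93 (SE 0.10, adjusted p = 1.36e-04, limma), or 1.90-fold. Depletion lowered it by 0.37 without TGFβ (adjusted p = 0.00928, limma), below the fold threshold, and it was called with TGFβ at -0.75 (SE 0.10, adjusted p = 4.48e-05, limma). With a correction for GC content and length, chosen after seeing the data, the last value was -0.57 and no longer past the fold threshold. Depleted cells with TGFβ stood at 147% of the *KLF7* level of untreated siControl cells.

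*KLF9*, *KLF13* and *KLF16* are related repressors that share a short motif for binding SIN3A. *KLF9*, on chromosome 9 from 72999520 to 73029573, responds to glucocorticoid and thyroid hormones in many tissues. It had 284 and 309 normalized counts in siControl, 161 and 162 in siPHF13, 290.0 and 326 in siControl + TGFβ and 173 and 128 in siPHF13 + TGFβ cells. The depleted libraries did not overlap with the siControl ones, and TGFβ made little difference. After depletion its log2 fold change was -0.87 without TGFβ (SE 0.18, adjusted p = 0.00107, limma) and -1.04 with TGFβ (SE 0.18, adjusted p = 2.36e-04, limma). The values for TGFβ were 0.05 in siControl cells (interval -0.32 to 0.43) and -0.12 in siPHF13 cells (interval -0.50 to 0.26), and neither passed the test.

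*KLF13*, on chromosome 15 from 31619038 to 31727868, is known from lymphocytes, where it acts at a chemokine gene. It had 2665 and 2771 normalized counts in siControl, 2239 and 2062 in siPHF13, 2926 and 3228 in siControl + TGFβ and 2448 and 2164 in siPHF13 + TGFβ cells. It fell in both depletion comparisons, by 0.34 (adjusted p = 0.0039, limma) and by 0.42 (adjusted p = 8.27e-04, limma), below the fold threshold. Both siControl + TGFβ libraries were above both siControl ones, but the difference of 0.18 did not pass the test (adjusted p = 0.174, limma).

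*KLF16*, on chromosome 19 from 1852398 to 1863578, went the other way. It had 2538 and 2602 normalized counts in siControl, 3189.8 and 2934 in siPHF13, 2404 and 2451 in siControl + TGFβ and 3094 and 3074 in siPHF13 + TGFβ cells. All 4 depleted libraries were above all 4 siControl libraries. It rose after depletion by 0.25 (SE 0.07, adjusted p = 0.00803, limma) without and by 0.35 (SE 0.07, adjusted p = 8.59e-04, limma) with TGFβ, both below the fold threshold.

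*KLF3*, which represses through the CtBP corepressors, was the other member that rose. The gene lies on chromosome 4 from 38665818 to 38703138. It had 1526 and 1528 normalized counts in siControl, 2181 and 2356 in siPHF13, 1894 and 1895 in siControl + TGFβ and 2535 and 2330.2 in siPHF13 + TGFβ cells. Depleted libraries were higher at either treatment, by 0.57 without TGFβ (SE 0.08, adjusted p = 3.58e-05, limma), just under the fold threshold, and by 0.36 with TGFβ (adjusted p = 0.00132, limma). The first value was called without siPHF13 replicate 1 (0.62) and with the GC and length correction (0.68). *KLF3* also rose with TGFβ in siControl cells, by 0.31 (adjusted p = 0.0123, limma), and did not pass the test in siPHF13 cells (0.10, interval -0.06 to 0.26).

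*KLF4*, on chromosome 9 from 110247133 to 110252763, is a factor of epithelial differentiation and of reprogramming to pluripotency. It had 1490.0 and 1417 normalized counts in siControl, 974 and 1056 in siPHF13, 1273 and 1195 in siControl + TGFβ and 958 and 942 in siPHF13 + TGFβ cells. The 4 depleted libraries were the lowest. It fell by 0.52 without (SE 0.09, adjusted p = 2.45e-04, limma) and by 0.38 with TGFβ (adjusted p = 0.00243, limma). The value for TGFβ in siControl cells, -0.24, did not pass the test (adjusted p = 0.0831, limma).

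*KLF5*, on chromosome 13 from 73629114 to 73651679, promotes proliferation in epithelia and is expressed in gut crypts. It had 65.4 and 54.1 normalized counts in siControl, 25.9 and 21.7 in siPHF13, 39.9 and 82.3 in siControl + TGFβ and 35.6 and 26.9 in siPHF13 + TGFβ cells. The siControl + TGFβ libraries were furthest apart and spanned the siControl ones. It was called lower after depletion without TGFβ, at -1.29 (SE 0.39, adjusted p = 0.0149, limma), and missed the test with TGFβ at -0.87 (adjusted p = 0.0817, limma). The call rests on few reads and was lost without siControl replicate 1 (-1.16, adjusted p = 0.103, limma) and without siPHF13 replicate 2 (-1.17, adjusted p = 0.0738, limma). Conversely, without siControl_TGFb replicate 1 the value with TGFβ was -1.38 and called (adjusted p = 0.0201, limma).

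**Figure D3:**
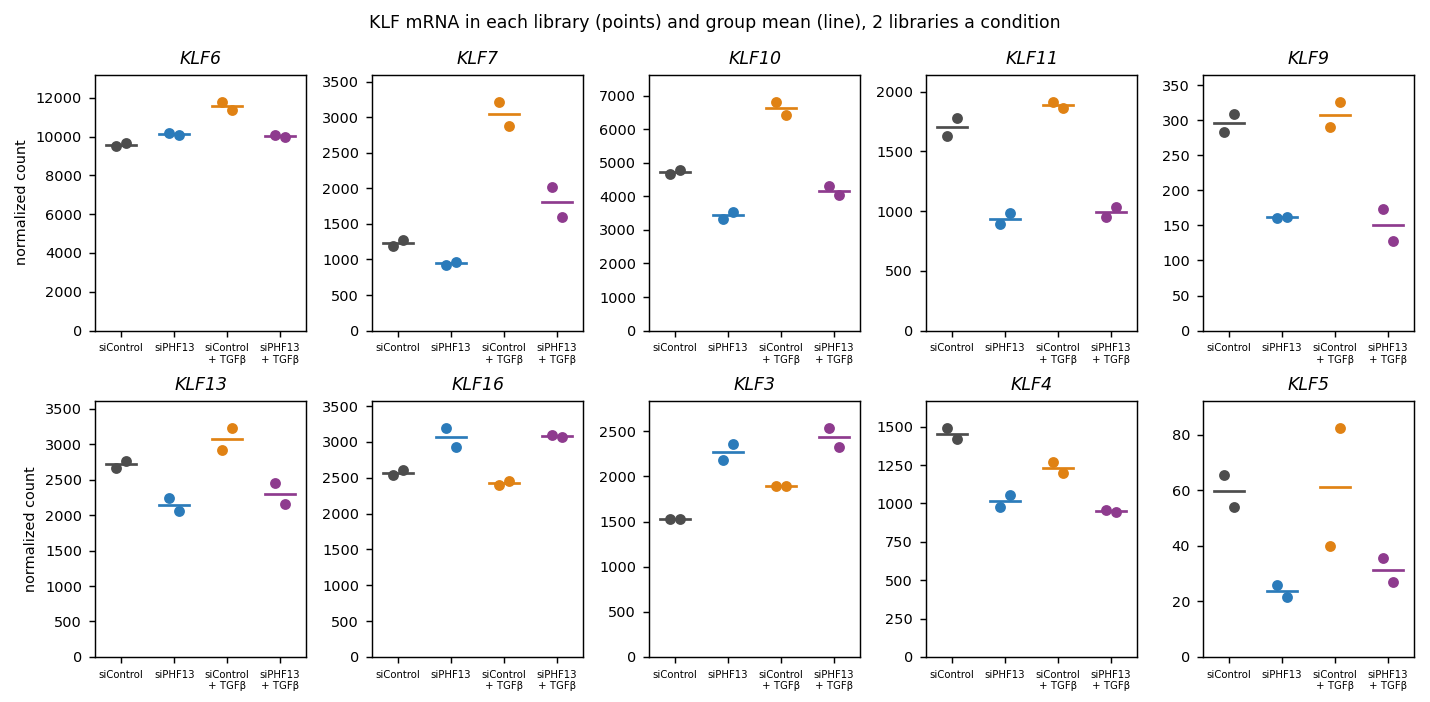
Normalized count of each of the 10 genes in every library (points) with the mean of the 2 libraries (lines), each panel on its own scale from 0. *KLF11* and *KLF9* split by siRNA, *KLF7* rises with TGFβ in both siRNA backgrounds, and the siControl + TGFβ points of *KLF5* lie at 39.9 and 82.3.

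In siControl cells TGFβ raised 4 of the 10 genes, *KLF3*, *KLF6*, *KLF7* and *KLF10*, and lowered none, with *KLF7* alone called. Of all genes 3.27% were called higher and 1.52% lower, and 9.21% rose and 6.67% fell by the adjusted p alone. The median of the 10 was 0.16, against -0.01 over all genes. In siPHF13 cells TGFβ raised 2, *KLF7*, which was called, and *KLF10*. The rise of *KLF10* was lost in a fit to only the siPHF13 and siPHF13 + TGFβ libraries (adjusted p = 0.151, limma). Of all genes 1.13% were called higher and 0.218% lower, and 2.22% rose and 0.857% fell by the adjusted p alone. The median was 0.09, against -0.01 over all genes. That a gene passed in siControl and not in siPHF13 cells does not show that its responses differ, and the interaction, the response in siPHF13 minus that in siControl cells, tests this directly. No member passed it with limma, against 0.308% of all genes called and 0.413% past the adjusted p alone, and 3 of the 10 had an unadjusted p under 0.05, as did 9.46% of all genes. These were *KLF6*, at -0.29 (95% interval -0.46 to -0.12, adjusted p = 0.191, limma), *KLF7*, at -0.38 (interval -0.70 to -0.06, adjusted p = 0.389, limma), and *KLF10*, at -0.21 (interval -0.41 to -0.01, adjusted p = 0.488, limma). In these 3 genes the response in depleted cells was the smaller one. No count model was run for the interaction.

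**Figure D4:**
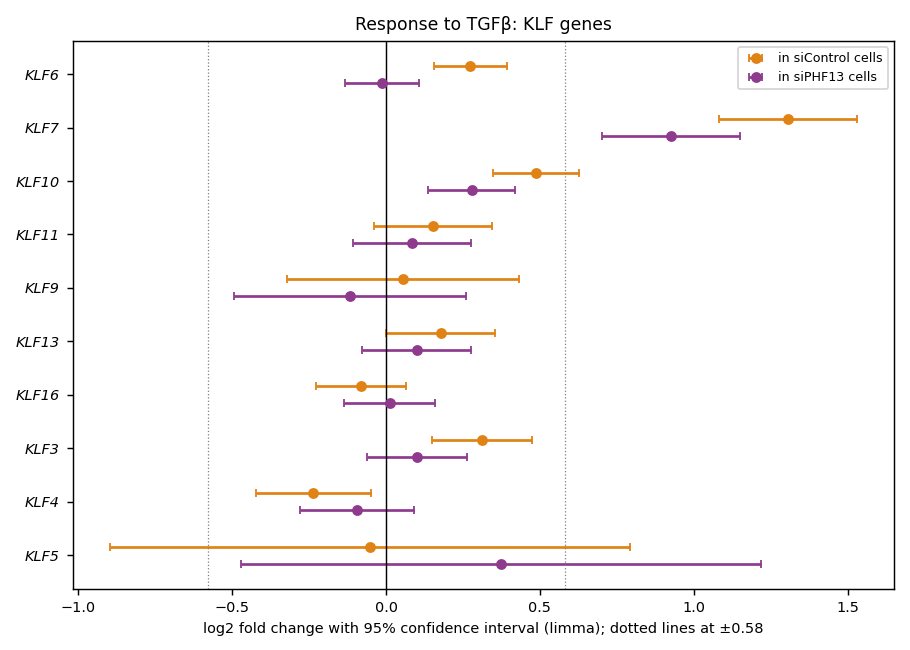
Log2 fold change of each gene with TGFβ, in siControl cells (siControl + TGFβ against siControl) and in siPHF13 cells (siPHF13 + TGFβ against siPHF13), with 95% confidence intervals from limma and dotted lines at 0.58 in either direction. The point of *KLF7* alone lies beyond the upper line, in both backgrounds, and *KLF6* is above 0 in siControl cells and at -0.01 in siPHF13 cells.

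Depleted cells with TGFβ were also set against untreated siControl cells, which combines both treatments. *KLF3* was called higher (0.67, adjusted p = 6.80e-06, limma). *KLF4* (-0.61), *KLF9* (-0.99) and *KLF11* (-0.78) were called lower. Of all genes 9.75% were called higher and 11.4% lower, and 25.1% rose and 25.9% fell by the adjusted p alone. *KLF7* rose by 0.55 and *KLF16* by 0.26, and *KLF10* and *KLF13* fell by 0.18 and 0.24, all below the fold threshold. *KLF5* at -0.92 (adjusted p = 0.0658, limma) and *KLF6* at 0.07 did not pass the test. The call of *KLF4* was lost without siControl replicate 1 (-0.58), and *KLF7* was called without siControl replicate 2 (0.60) and without siPHF13_TGFb replicate 2 (0.72). *KLF5* was called without siControl_TGFb replicate 1 (adjusted p = 0.0418, limma).

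Of 17 other genes of the KLF and SP families 8 were in the table. SP factors bind the same GC boxes. After depletion 1 was called higher and 2 lower without TGFβ, and 2 higher and 2 lower with TGFβ, where 7.95% and 10.4% of all genes were called higher and lower without TGFβ and 8.81% and 11.7% with it. The median of the 8 was -0.21 without and -0.17 with TGFβ. *KLF12*, a repressor that binds CtBP as *KLF3* does, was called lower at -1.08 without and -1.24 with TGFβ (adjusted p = 1.91e-05 and 4.99e-06, limma). *SP6*, with 7.56 to 53.1 normalized counts, was called lower at -1.67 and -1.69. *SP4* was called higher at 0.73 and 0.68, and *KLF2*, known from endothelium and T cells, had 0.17 without TGFβ and was called higher with TGFβ, at 0.69 (adjusted p = 0.0183, limma). *SP1*, the most widely expressed member, fell by 0.32 and 0.36, below the fold threshold. With TGFβ in siControl cells 1 of the 8 passed the test, *KLF12*, which rose by 0.43 (adjusted p = 0.0412, limma), below the fold threshold. Of all genes 9.21% rose and 6.67% fell by the adjusted p alone in that comparison.

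The corepressors that bind KLF proteins were all in the table (8 of 8). After depletion without TGFβ 3 rose and 3 fell, and with TGFβ again 3 and 3, where 23.1% and 24.3% of all genes rose and fell without TGFβ and 24.5% and 25.9% with it. The median of the 8 was -0.04 without and 0.01 with TGFβ. *CTBP2*, partner of *KLF3* and *KLF12*, was called lower at -0.82 and -0.94 (adjusted p = 3.43e-07 and 8.37e-08, limma), whereas the value of its relative *CTBP1* did not pass the test. *SIN3B* was called higher without TGFβ (0.60) and rose with TGFβ (0.50), while *SIN3A*, the partner of *KLF9*, *KLF10*, *KLF11*, *KLF13* and *KLF16*, fell by 0.24 and 0.32. *HDAC1*, a deacetylase of that complex, fell by 0.50 without and was called at -0.71 with TGFβ, and *SAP30* rose by 0.44 and was called at 0.83. The other listed deacetylases did not fall. *HDAC2* did not pass the test (0.04 and -0.02), and *HDAC3* rose by 0.18 without and 0.18 with TGFβ. Of the 4 ubiquitin ligases known to act on KLF proteins, *FBXW7*, which acts on KLF5, was called higher at 0.77 and 0.83 (adjusted p = 1.64e-05 and 7.63e-06, limma). *WWP1*, which also acts on KLF5, fell by 0.47 and 0.55, and *ITCH* fell by 0.23 and 0.34. These are mRNA levels, and no protein was measured in these libraries.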

How the data were processed

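mRNA of Panc-1 cells was sequenced in 4 conditions with 2 libraries each, grouped by the sample labels. Per the labels and the study's methods, the authors trimmed paired-end reads with Trim Galore 0.4.1, aligned them with STAR 2.7.0 to hg19 and counted reads on exons with HTSeq 0.12.4. The strand setting and the annotation are not given in the sources used here. The deposited values are a signal: gene counts divided by the authors' DESeq2 size factor of each library. Tables of the authors' own comparisons (fold changes and p-values) entered no result. Column names were matched to the groups by the names the study uses, and the group means of the matched columns were checked against the mean columns of those tables.

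All values of a library are whole multiples of one step, which gives its reads on genes. In siPHF13 replicate 1 the step was too near 1 to tell reads from rounding by the rule applied, so edgeR 4.0.16 and DESeq2 1.42.0 served as alternatives on the 6 libraries of the remaining conditions, for the 3 comparisons this allows. The main test was limma 3.58.1 (R 4.3.3) with a trended prior variance on log2(normalized count + 1), two-sided, in one fit over 8 libraries, with Benjamini-Hochberg adjustment over 13307 genes. Genes needed 10 normalized counts in 2 or more libraries, which all met. The thresholds, adjusted p 0.05 and log2 fold change 0.58, are those of the study. The fit was tested on simulated data with one spread for all conditions. Replicate noise in these libraries differed between conditions, so the simulation does not cover the effect of pooling their spread.

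One gene of the lists is not reported here. The members, the lists of related genes and the tests were chosen with earlier results of these data known. Named were all members, the called genes of the lists, other genes of these lists where a sentence compares them with a relative (chosen after their values were seen) and, for the 3 members with the widest range of group means, the 3 genes of most similar pattern among those averaging 100 normalized counts or more. Gene positions, transcript lengths and promoter matches are on GRCh37 with GENCODE. Alternatives were a pseudocount of 5, no minimum, TMM factors, only the libraries compared, a replicate block, no fold threshold, the count models, each library left out in turn, and a correction for GC content and length, chosen after seeing the data, over the 12247 genes (92.0%) with both values.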

Additional observations from a re-analysis of the deposited data

How the results depend on the processing

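With no fold threshold the members passing were 9 after depletion without TGFβ, 4 with TGFβ in siControl cells, 9 after depletion with TGFβ, 2 with TGFβ in siPHF13 cells and 8 for both treatments together, against 3, 1, 4, 1 and 4 with it. Over all genes the counts were 6308, 2114, 6712, 409 and 6789, against 2448, 637, 2726, 179 and 2812. Under the other alternatives each count of called members stayed within 1.5 times the main one, and edgeR and DESeq2 gave 1, 4 and 4 members in the 3 comparisons they could be run for. Of the single fold changes, 864 alternatives kept direction and side of the threshold, 8 gained a call, 4 lost one and 14 changed sign, each of the 14 from a value that was not called. Many of the 864 could not have changed direction. The minimum removed no gene, so leaving it out repeated the main fit. Fold changes also stay the same with only the libraries compared, with the replicate block, and where the library left out is not in the comparison. *KLF5* with TGFβ in siControl cells turned to 0.031 with edgeR and 0.033 with DESeq2, and in siPHF13 cells *KLF16* turned to -0.065 and *KLF6* to 0.0033 with the GC and length correction. With 1 library left out, the values with TGFβ in siControl cells lay between -0.56 and 0.46 for *KLF5* and between -0.030 and 0.14 for *KLF9*. Those in siPHF13 cells lay between -0.33 and 0.097 for *KLF9* and between -0.049 and 0.072 for *KLF16*. The interactions lay between -0.088 and 0.94 (*KLF5*), -0.39 and 0.042 (*KLF9*), -0.14 and 0.0051 (*KLF11*) and -0.17 and 0.011 (*KLF13*). The correction also gave *KLF3* a call after depletion without TGFβ (0.68) and *KLF7* one for both treatments (0.69). *KLF5* was called for both treatments with only the libraries compared (adjusted p = 0.0419, limma). The cause of these changes was not tested. Over all genes the interaction called 41. It called 12 and 19 without siControl replicate 2 or 1, 22 without siPHF13 replicate 1, 16 and 21 without siControl_TGFb replicate 1 or 2, and 111 without siPHF13_TGFb replicate 1. The 2 libraries of a condition share only a replicate number with those of others: deviations of same-numbered libraries correlated between -0.25 and 0.27 over the pairs of conditions, and the replicate block left each count of called members at 3, 1, 4, 1, 4 and 0. TMM factors moved the median of all genes by at most 0.00463 on the log2 scale. Depth limits *KLF5*, *SP6* and *PDGFRB*, and also *KLF14*, one of the 8 other family genes, with 10.3 to 33.5 normalized counts.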

Other observations

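The 3 members with the widest range of group means were *KLF7*, *KLF5* and *KLF9*, and for each the 3 genes of most similar pattern are given, by the root mean square difference of centred log2 values over 8 libraries. For *KLF7* these were *SIM2* (0.0723), *TPM1* (0.106), a tropomyosin of the actin cytoskeleton, and *ITGA5* (0.116), the fibronectin receptor subunit. *TPM1* had means of 13269 normalized counts in siControl, 10851 in siPHF13, 31918 in siControl + TGFβ and 18871 in siPHF13 + TGFβ cells. *ITGA5* had 34992, 29715, 99779 and 51261 in the same order. For *KLF9* they were *MYO5A* (0.0730), a myosin motor, *IQCE* (0.0756) and *FRK* (0.0770), a tyrosine kinase. *MYO5A* had 4799 normalized counts in siControl, 2607 in siPHF13, 4975 in siControl + TGFβ and 2300.3 in siPHF13 + TGFβ cells. For *KLF5* they were *TTC39B* (0.219), *ARNTL2* (0.235), a partner of the circadian factor CLOCK, and *SNPH* (0.246), with larger differences than for *KLF7* and *KLF9*. Likeness over 4 conditions of 2 libraries is a description of these libraries.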
